A study of Mus musculus with 32 samples.

Results

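Krt7, Krt8, Krt18, Krt19 and Krt20, the keratins of simple epithelia, were followed in whole kidneys of mice lacking Col4a3. The 5 genes were taken by name from 22180 genes on the array. For each symbol the array feature with the highest mean signal among the features naming that gene alone was used. All 5 were found and none was left out. At 7 weeks of age all 5 had higher signals in Col4a3-deficient kidneys, by 1.33-fold for Krt7, 1.76-fold for Krt8, 2.46-fold for Krt19, 3.17-fold for Krt18 and 7.29-fold for Krt20. At 4 weeks none of the 5 differed between the genotypes past the threshold.

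Keratins are the intermediate filament proteins of epithelial cells. A type I keratin pairs with a type II keratin to make a filament, and filaments are anchored at desmosomes, so that they carry mechanical load from cell to cell. Krt8 (type II) and Krt18 (type I) form the founding pair of single-layered epithelia, and in the kidney they are found in tubules and most of all in collecting ducts. Krt7 (type II) and Krt19 (type I) are keratins of ducts and of the urothelium, and Krt20 (type I) is known from the surface cells of the urothelium and from intestinal epithelium. Loss of Col4a3, a collagen IV chain of the glomerular basement membrane, gives mice a progressive glomerular and then tubulointerstitial disease used as a model of Alport syndrome.

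The kidneys came from 32 male mice on the 129 strain. Knockout mice (Col4a3-/-, KO) and their littermate wild-type controls (Col4a3+/+, WT) were studied at 7 weeks (8 KO and 8 WT mice) and at 4 weeks (8 KO and 8 WT mice). The mutation is carried by every cell of a KO mouse, and the labels mention no treatment. RNA of each mouse was hybridised to 1 Affymetrix Mouse Gene 2.0 ST array. Values are on the log2 scale, so that a difference of 1 is a doubling. Different features have different affinities, so levels are compared between mice for 1 gene and never between genes. The precision is limited by the number of arrays, and p-values measure the spread between mice.

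The labels were checked on Col4a3 first. Its log2 signal was 6.97 to 7.87 in KO mice against 8.74 to 9.06 in WT mice at 7 weeks, and 7.60 to 8.42 in KO mice against 8.46 to 9.33 in WT mice at 4 weeks, so that every KO mouse was below every WT mouse of its age. The position of the mutation relative to the probes was not examined, so this is a check of the labels alone. Arrays of 1 group correlated at r = 0.965 to 0.995, and 0 pairs of arrays held identical values. Markers of proximal tubule, the most abundant kidney cell, had a mean log2 signal of 11.19 to 12.34 over all mice.

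The promoters of 4 of the 5 genes are shown because all 5 were higher in KO mice at 7 weeks while the array reads transcripts only. Krt19 had no entry in the promoter set used. Each line holds the 250 bases before the annotated RefSeq start site in GRCm38.p6. Krt20 lies on chromosome 11 (chr11:99438154-99438403, minus strand). Krt18 (chr15:102027966-102028215, plus strand), Krt8 (chr15:102004343-102004592, minus strand) and Krt7 (chr15:101412153-101412402, plus strand) lie on chromosome 15. Among the keratins shown there, Krt8 and Krt18 lie closest to each other and are read away from each other. Capitals mark motif matches.
Krt20: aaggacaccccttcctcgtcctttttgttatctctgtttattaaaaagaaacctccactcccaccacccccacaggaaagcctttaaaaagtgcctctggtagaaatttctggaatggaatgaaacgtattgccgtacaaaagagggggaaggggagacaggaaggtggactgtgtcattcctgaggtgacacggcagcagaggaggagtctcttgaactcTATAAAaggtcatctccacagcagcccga
Krt18: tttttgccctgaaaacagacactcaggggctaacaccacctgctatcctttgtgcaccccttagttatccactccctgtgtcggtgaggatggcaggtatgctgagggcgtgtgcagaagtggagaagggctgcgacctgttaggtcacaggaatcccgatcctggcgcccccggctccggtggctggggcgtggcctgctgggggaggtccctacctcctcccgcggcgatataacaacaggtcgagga
Krt8: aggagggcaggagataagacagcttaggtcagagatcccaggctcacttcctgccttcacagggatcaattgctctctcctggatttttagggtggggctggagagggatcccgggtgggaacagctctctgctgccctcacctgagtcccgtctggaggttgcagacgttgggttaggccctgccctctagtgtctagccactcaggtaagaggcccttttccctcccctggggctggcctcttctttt
Krt7: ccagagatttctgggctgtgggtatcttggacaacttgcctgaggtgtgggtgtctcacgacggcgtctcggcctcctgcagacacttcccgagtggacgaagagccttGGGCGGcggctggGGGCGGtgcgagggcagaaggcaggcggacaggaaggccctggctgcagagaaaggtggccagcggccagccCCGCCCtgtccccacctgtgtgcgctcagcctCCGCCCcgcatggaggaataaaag
On both strands, the search was for an AP-1 element (TGANTCA), a STAT element (TTCNNNGAA), a GC box (GGGCGG) and a TATA box (TATAAA), with no base shared between matches. The Krt7 window held 4 GC boxes, with first bases at -141, -128, -56 and -24 from the start site, and the Krt20 window held 1 TATA box from -29 to -24. Krt8 and Krt18 held none of these motifs, and none of the 4 windows held the AP-1 or STAT letters. Of 32851 mouse promoter windows of the same length, 6.75% held the AP-1 letters, 7.02% the STAT letters, 32.7% a GC box and 12.4% a TATA box. A match is a description of letters and not a binding site, and a missing match says only that the letters are not in this window.

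The first comparison, KO against WT at 7 weeks, asked which keratins differed at the later age. All 5 passed at an adjusted p below 0.05 (limma, Benjamini-Hochberg over 22180 genes), beside a background in which 15.6% of all genes were higher in KO and 32.3% passed in either direction. For Krt8, Krt18, Krt19 and Krt20 every KO mouse was above every WT mouse, which was so for 7.62% of all genes. In whole kidney, more cells of a type and more RNA per cell cannot be told apart.

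Krt20, a type I keratin that marks fully differentiated surface urothelium, had the largest change of the 5. Its log2 signal was lowest at 6.64, with a median of 7.50 and a highest value of 8.13, in 7-week KO mice, against 4.16, 4.60 and 5.03 in 7-week WT mice. The lowest KO mouse was far above the highest WT mouse. The mean was 7.43 ± 0.49 in KO mice and 4.57 ± 0.28 in WT mice (SD, n = 8 each), a difference of 2.87 ± 0.23 (SE, limma adjusted p = 1.28e-11). By size of the difference Krt20 was number 35 of the 22180 genes. The WT signals lay below the median over all features of their arrays (5.61 to 5.73), and whether they were above background was not tested.

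Krt18, the type I partner of Krt8, followed. Its lowest, median and highest signals were 8.14, 8.98 and 10.10 in 7-week KO mice, against 7.25, 7.46 and 7.84 in 7-week WT mice. The groups did not overlap, but the lowest KO mouse was close to the highest WT mouse and the highest KO mouse was far from both. The mean was 9.14 ± 0.75 in KO mice and 7.47 ± 0.19 in WT mice (SD, n = 8 each), a difference of 1.66 ± 0.19 (SE, limma adjusted p = 2.33e-08). A dimmer feature naming Krt18 alone gave 6.64 to 7.87 in KO mice against 5.46 to 5.85 in WT mice. Its difference was 1.51 ± 0.15 (limma adjusted p = 1.64e-09), close to that of the feature used.

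Krt8, the type II partner, rose as well. Its lowest, median and highest signals were 10.68, 11.20 and 11.71 in 7-week KO mice, against 10.26, 10.36 and 10.44 in 7-week WT mice. The WT mice lay in a narrow band, and the KO mice were spread widely above it. The mean was 11.17 ± 0.41 in KO mice and 10.36 ± 0.07 in WT mice (SD, n = 8 each), a difference of 0.81 ± 0.12 (SE, limma adjusted p = 1.07e-06). Whether Krt8 and Krt18 differ in the size of their change was not tested, since probes can compress differences unequally.

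Krt19, the smallest keratin, which lacks the tail domain of the others, was lowest at 6.13, with a median of 6.88 and a highest value of 8.02, in 7-week KO mice, against 5.27, 5.63 and 6.03 in 7-week WT mice. The lowest KO mouse exceeded the highest WT mouse by little. The mean was 6.93 ± 0.73 in KO mice and 5.63 ± 0.24 in WT mice (SD, n = 8 each), a difference of 1.30 ± 0.19 (SE, limma adjusted p = 1.36e-06). The WT mean lay near the medians over all features of the WT arrays (5.61 to 5.73). Whether the WT signals of Krt19 were above background was not tested.

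Krt7, a type II keratin of ducts, had the smallest change, and its groups overlapped. Its lowest, median and highest signals were 7.39, 7.93 and 8.71 in 7-week KO mice, against 7.27, 7.46 and 7.77 in 7-week WT mice. Of the KO mice, 5 were above every WT mouse, and KO mice 3, 5 and 7 lay inside the WT range. The mean was 7.90 ± 0.45 in KO mice and 7.49 ± 0.18 in WT mice (SD, n = 8 each), a difference of 0.41 ± 0.13 (SE, limma adjusted p = 0.0126). This call held in 32 of 32 fits that left out 1 mouse, with an adjusted p of at most 0.0402, but missed the threshold in rank-sum tests (adjusted p = 0.0878). Without KO mice 1 and 6, which are its 2 highest values, so that their loss must shrink it, the difference was 0.21 (adjusted p = 0.145).

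In exact two-sided permutation tests over all 12870 splits of the mice, Krt8, Krt18, Krt19 and Krt20 each reached p = 0.000155 at 7 weeks, the smallest these tests can give (0.000345 after Benjamini-Hochberg adjustment over 20 tests). Krt7 gave an exact permutation p of 0.0244 (adjusted 0.0444). The median signal over the tested genes was 0.11 higher in 7-week KO arrays than in 7-week WT arrays. Over all features the medians differed by 0.01, and the median of the differences of single tested genes was -0.06. Relative to the shift of 0.11 the differences at 7 weeks were 2.75 for Krt20, 1.55 for Krt18, 1.19 for Krt19, 0.70 for Krt8 and 0.30 for Krt7, and all 5 still passed (limma adjusted p = 0.0493 for Krt7).

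**Figure D1:**
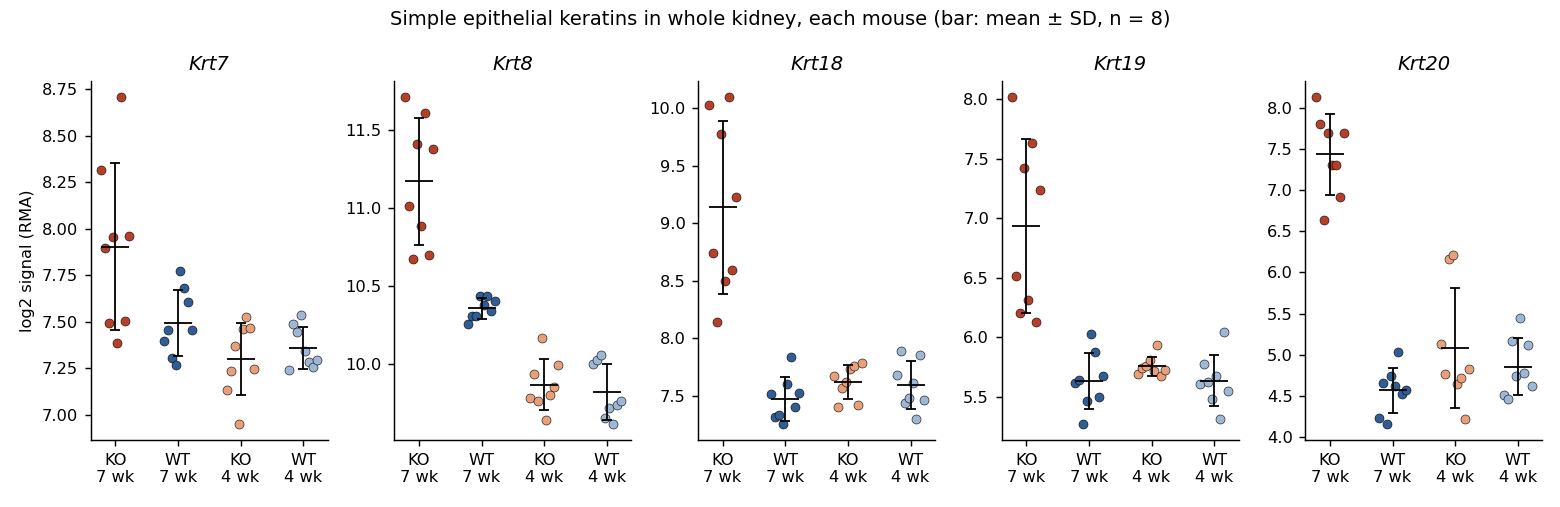
Log2 signal of each keratin (vertical axis, a separate scale for each gene) in every mouse of the 4 groups, with the group mean and SD as a bar (n = 8). The 7-week KO mice sit apart from the other 3 groups for Krt18, Krt19 and Krt20, overlap the 7-week WT mice for Krt7, and for Krt8 the 7-week WT mice also sit above the 4-week mice.

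At 4 weeks 0 of the 5 keratins passed in KO against WT (limma), beside 0.0406% of all genes (0.0316% higher and 0.00902% lower). For none of them did every KO mouse exceed every WT mouse, as for 0.0271% of all genes. None of the 5 had an unadjusted p below 0.05 (limma), as 2044 of the 22180 genes did. In rank-sum tests 0 of all genes passed at 4 weeks, so a count of 0 there says nothing about a list. Exact permutation of the 5 gave unadjusted p values from 0.163 for Krt19 to 0.74 for Krt18. The differences were -0.06 for Krt7, 0.05 for Krt8, 0.03 for Krt18 and 0.12 for Krt19, all with an adjusted p of 0.883 or more. The confidence limits of Krt18 at 4 weeks were -0.36 and 0.42, which lie below its difference at 7 weeks. The fit used a common variance for each gene over all groups. For Krt7, Krt8, Krt18 and Krt19 the limits and the adjusted p at 4 weeks therefore carry the spread of the 7-week KO mice. At 7 weeks the narrower spread of the 4-week mice enters the SE and adjusted p of these genes in turn. Their SE at 7 weeks is smaller for it. The SD of Krt18 was 0.15 in 4-week KO mice and 0.21 in 4-week WT mice, against 0.75 in 7-week KO mice. For Krt19 the same SDs were 0.08, 0.22 and 0.73. They were 0.16, 0.18 and 0.41 for Krt8 and 0.20, 0.11 and 0.45 for Krt7. The exact permutation tests at 4 weeks used the 4-week mice alone, and those at 7 weeks the 7-week mice alone.

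Krt20 was the most variable of the 5 at 4 weeks. Its lowest, median and highest signals were 4.21, 4.80 and 6.21 in 4-week KO mice, against 4.46, 4.76 and 5.44 in 4-week WT mice. The groups overlapped, and KO mice 3 and 4 (6.17 and 6.21) were above every WT mouse. The mean was 5.08 ± 0.73 in KO mice and 4.86 ± 0.35 in WT mice (SD, n = 8 each), a difference of 0.23 ± 0.23 with 95% confidence limits of -0.24 and 0.70 (limma adjusted p = 0.798).

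Havcr1, the tubular injury marker KIM-1, was high in 3 of the 4-week KO mice. Its signal was 10.84 and 10.43 in KO mice 3 and 4, 10.57 in KO mouse 1, where Krt20 was only 5.12, and 8.96 to 9.71 in the other 5 KO mice. WT mouse 5, the highest WT mouse for Krt20 at 5.44, had 10.47, and the other 7 WT mice had 8.14 to 8.89. The 4-week KO mouse with the lowest Krt20, mouse 7 at 4.21, also had the lowest Havcr1 of its group. Of the 14 injured-tubule markers 1 passed at 4 weeks, beside 0.0406% of all genes. It was Lcn2 (1.27 higher in KO, limma adjusted p = 0.0342). The part of tubular injury in the Krt20 values was not tested.

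The genotype difference at 7 weeks was then set against that at 4 weeks. Of the 5 keratins, 4 passed this interaction test, all with a larger difference at 7 weeks, beside 9.8% of all genes in that direction and 17% in either. The difference grew by 2.64 ± 0.33 for Krt20 (SE, limma adjusted p = 9.7e-07) and by 1.63 ± 0.27 for Krt18 (adjusted p = 6.28e-05). It grew by 1.18 ± 0.27 for Krt19 (adjusted p = 0.00186) and by 0.77 ± 0.16 for Krt8 (adjusted p = 0.00108). For Krt7 the value was 0.47 ± 0.18 and missed the threshold (adjusted p = 0.0705).

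The ages were then compared within each genotype. In KO mice all 5 keratins were higher at 7 weeks, beside 21.4% of all genes that were higher and 21.3% that were lower (42.6% in either direction). The increase was 2.35 ± 0.23 for Krt20 (SE, limma adjusted p = 1.19e-09), 1.52 ± 0.19 for Krt18 (1.17e-07), 1.30 ± 0.12 for Krt8 (2.14e-10), 1.18 ± 0.19 for Krt19 (5.17e-06) and 0.60 ± 0.13 for Krt7 (0.000244). For all of these except Krt7, every 7-week KO mouse was above every 4-week KO mouse, as for 6.89% of all genes.

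In WT mice 1 of the 5 changed with age, beside 15.4% of all genes that were higher at 7 weeks (29.5% in either direction). Krt8 was lowest at 10.26, with a median of 10.36 and a highest value of 10.44, in 7-week WT mice, against 9.62, 9.75 and 10.06 in 4-week WT mice. Every 7-week WT mouse was above every 4-week WT mouse, as for 7.38% of all genes, and the rise was 0.54 ± 0.12, or 1.45-fold (SE, limma adjusted p = 0.000587, exact permutation p = 0.000155). Its partner Krt18 had a difference of -0.12 ± 0.19 over the same weeks (adjusted p = 0.713). The differences of Krt7 (0.13), Krt19 (-0.00) and Krt20 (-0.29) did not pass either, with adjusted p from 0.392 for Krt20 upward. The SE and adjusted p of Krt7, Krt8, Krt18 and Krt19 here also carry the spread of the 7-week KO mice, through the common variance. The KO and WT comparisons at each age share their mice with these age comparisons.

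**Figure D2:**
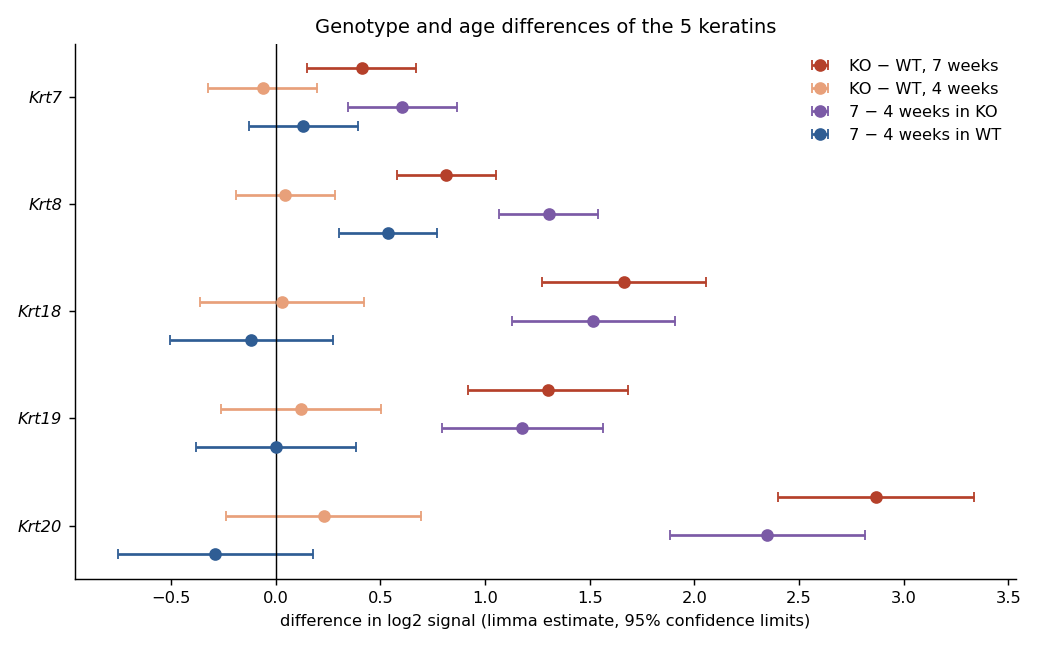
Differences in log2 signal for each keratin (horizontal axis, limma estimate with 95% confidence limits from a variance common to all groups). KO minus WT lies above 0 for all 5 at 7 weeks and spans 0 for all 5 at 4 weeks, and 7 minus 4 weeks lies above 0 for all 5 in KO mice and for Krt8 alone in WT mice.

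The 7-week KO mice differed among themselves far more than the WT mice. The SD among 7-week KO mice was 6.10 times that among 7-week WT mice for Krt8, 3.98 times for Krt18, 3.07 times for Krt19, 2.53 times for Krt7 and 1.77 times for Krt20, beside a median ratio of 1.03 over all genes. KO mice 1, 4, 6 and 8 were the 4 highest for Krt7, Krt8, Krt18 and Krt19. Krt18 was 10.03, 9.78, 10.10 and 9.23 in these mice, and 8.74, 8.14, 8.50 and 8.59 in KO mice 2, 3, 5 and 7. Krt20 ordered the mice differently: KO mice 1, 2, 4 and 8 were its 4 highest, and KO mouse 6, the highest for Krt7 and Krt18, was number 5 for Krt20.

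Some marker lists moved with this order and others did not. KO mice 1, 4, 6 and 8 also had the highest means of the injured-tubule, macrophage and fibroblast markers and the lowest means of the proximal tubule markers. Their means were also the highest for the principal cell, pan-epithelial and AP-1, Ets and Krüppel-like factor lists taken up below. The parietal epithelium, loop of Henle, intercalated cell, urothelium and mesothelium lists did not split this way. The first principal component (main axis of variation) was 56.4 to 62.7 in these mice and 24.5 to 36.7 in the other 7-week KO mice. The order was thus not particular to keratins. The mean log2 signal of 14 injured-tubule markers was 8.91 to 9.93 in 7-week KO mice and 7.24 to 7.54 in 7-week WT mice. The mean of 8 macrophage markers was 8.56 to 9.95 in KO mice and 6.71 to 7.08 in WT mice, that of 7 fibroblast markers 9.13 to 9.86 in KO mice and 7.87 to 8.34 in WT mice, and that of 11 proximal tubule markers 11.19 to 12.19 in KO mice and 12.25 to 12.34 in WT mice. All 14 injured-tubule, 8 macrophage and 7 fibroblast markers rose at 7 weeks, beside 15.6% of all genes. All 11 proximal tubule markers fell, beside 16.7% of all genes. The part of these cell types in the keratin differences was not tested.

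**Figure D3:**
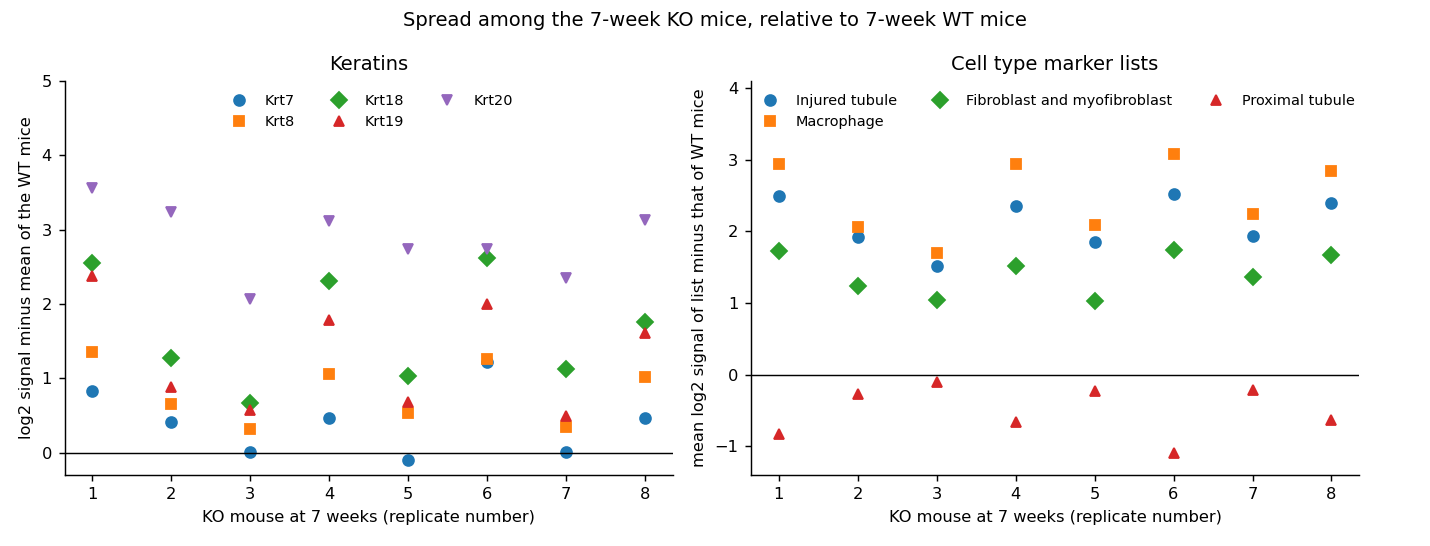
Values of the 8 KO mice at 7 weeks relative to the mean of the 7-week WT mice, for the 5 keratins (left) and for the mean of 4 marker lists (right), on the log2 scale. Mice 1, 4, 6 and 8 hold the 4 highest values of Krt7, Krt8, Krt18 and Krt19, the highest means of the injured-tubule, macrophage and fibroblast lists and the lowest means of the proximal tubule list.

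Epithelia that carry these keratins in the healthy kidney were examined through their own markers. Of 10 collecting duct principal cell markers, 0 rose and 2 fell at 7 weeks (limma), beside 15.6% and 16.7% of all genes. Of the 10, 2 had an unadjusted p below 0.05, and the same count passed in rank-sum tests. Those that fell were the water channels Aqp4 (-1.25 ± 0.23, SE, adjusted p = 4.17e-05) and Aqp3 (-0.41 ± 0.12, adjusted p = 0.00662), while Aqp2 (0.24) and Fxyd4 (0.25) did not pass. The median difference of this list was 0.06, against -0.06 over all genes. At 4 weeks all 10 had differences below 0, from -0.71 to -0.19, with 0 past the threshold (limma, 6 at an unadjusted p below 0.05, 0 in rank-sum tests). Over all 22180 genes these counts were 9, 2044 and 0. The mean of the list at 4 weeks was 7.91 to 8.07 in KO mice and 8.12 to 8.40 in WT mice. Between the ages 8 of the 10 were higher at 7 than at 4 weeks in KO mice, and 5 of the 10 in WT mice, beside 21.4% and 15.4% of all genes. Of 6 intercalated cell markers 0 rose and 2 fell, the anion exchangers Slc26a4 (-0.61) and Slc4a1 (-0.74). Of 6 loop of Henle markers 1 rose and 2 fell, Egf at -2.04 ± 0.30 and Ptger3 at -0.49, whose call held in 7 of 32 fits that left out 1 mouse. Of 3 parietal epithelium markers 1 rose, the tight junction gene Cldn1 (1.68 ± 0.14).

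Urothelium, which lines the renal pelvis, shares several of these keratins. Of its 10 measured markers 1 rose and 0 fell at 7 weeks (limma), beside 15.6% and 16.7% of all genes, with a median difference of -0.18. Of the 10, 3 had an unadjusted p below 0.05 and 2 passed in rank-sum tests. The riser was Psca, a cell surface antigen, at 3.23 ± 0.37 (SE, adjusted p = 2.42e-08). The uroplakins, the defining membrane proteins of urothelium, did not pass: Upk1a differed by -0.36 and Upk1b by -0.43. The mean of the urothelium list was 5.65 to 5.99 in 7-week KO mice and 5.28 to 6.24 in 7-week WT mice.

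Among WT mice 3 kidneys stood apart in Upk1a. Upk1a was 7.71 and 7.90 in 7-week WT mice 5 and 6 and 5.91 to 6.52 in the other 6, and it was 8.43 in 4-week WT mouse 7 and 6.09 to 6.86 in the other 7. Mouse 5 was the highest 7-week WT mouse for Krt19 (6.03) and Krt7 (7.77), and mouse 6 for Krt8 (10.44), Krt18 (7.84) and Krt20 (5.03). Mouse 7 was the highest 4-week WT mouse for Krt19 alone (6.05). Its Krt7 was 7.26 (group range 7.24 to 7.54) and its Krt8 9.74 (9.62 to 10.06). Its Krt18 was 7.86 (7.30 to 7.89) and its Krt20 5.12 (4.46 to 5.44). The 7-week KO mice had Upk1a signals of 5.70 to 7.12, with Krt19 of 6.13 to 8.02. Markers of other tissues that can adhere to a kidney gave no rise past the threshold. Of 4 mesothelium markers 1 fell (Gpm6a), of 4 adipocyte markers 1 fell (Adipoq), of 4 skeletal muscle markers 1 fell (Myh4, not after quantile normalization), and of 4 adrenal cortex markers 0 passed (0 at an unadjusted p below 0.05, and 0 in rank-sum tests). The shares over all genes were 15.6% higher and 16.7% lower, so a fall of 1 in such a short list is little more than the background.

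**Figure D4:**
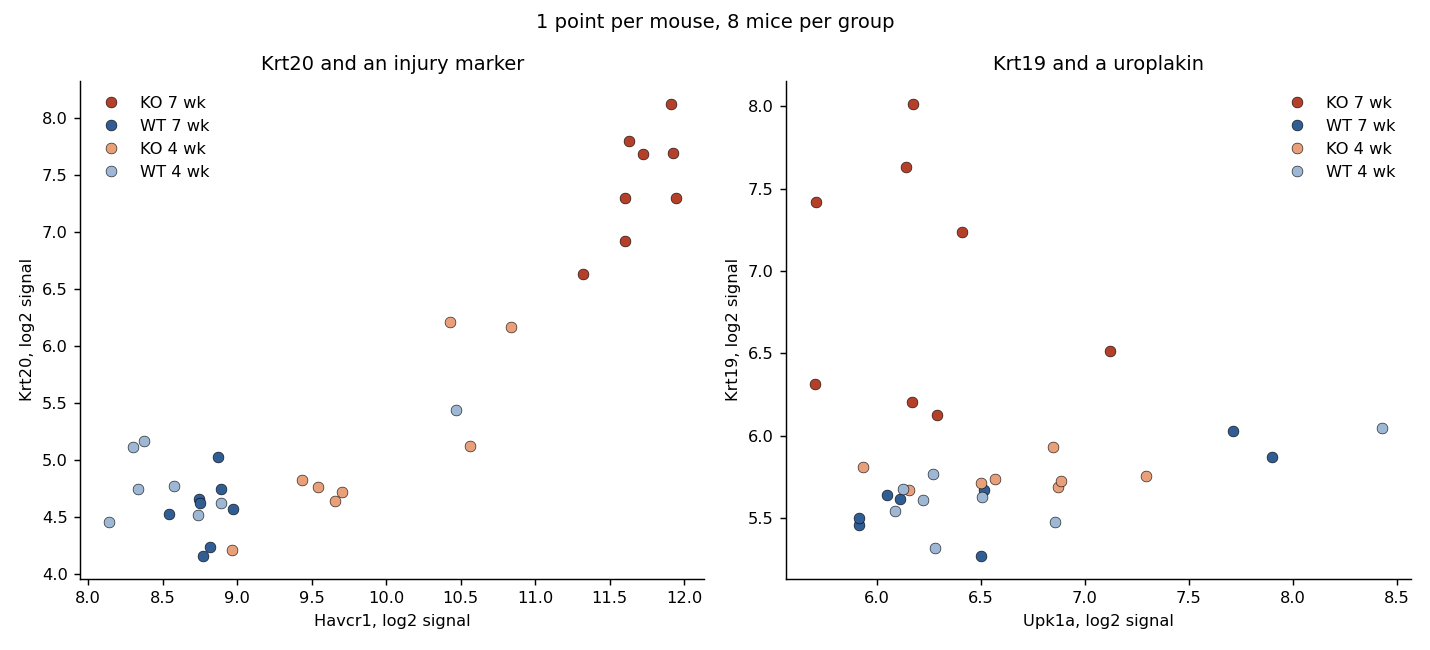
Log2 signals of each mouse in the 4 groups: Krt20 against the injury marker Havcr1 (left) and Krt19 against the uroplakin Upk1a (right). The 7-week KO mice hold the highest Krt20 and Havcr1 signals, 4-week KO mice 1, 3 and 4 and WT mouse 5 stand above the rest of their groups in Havcr1, and the 3 mice with the highest Upk1a are WT mice with Krt19 of 5.87 to 6.05.

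The rest of the keratin family behaved unlike the 5 in counts. Of 48 other measured keratins, most of them proteins of epidermis and hair, 1 rose and 3 fell at 7 weeks, beside 15.6% and 16.7% of all genes, and 44 did not pass. Their median difference was -0.10, against 1.30 for the 5 simple keratins and -0.06 for all genes. On average these 48 genes were dim, though Krt10 was brighter, at 6.35 to 7.64 in the 7-week mice. Their mean log2 signal was 5.07 to 5.25 in 7-week KO mice and 5.15 to 5.32 in 7-week WT mice. The median over all features of these arrays was 5.61 to 5.73. Whether the 48 were above background was not tested, so their few calls may reflect low signal. At 4 weeks 0 of the 48 passed (limma, 0 at an unadjusted p below 0.05, 0 in rank-sum tests). Over all 22180 genes these counts were 9, 2044 and 0. Krt17, a keratin of stressed and healing epithelia, was lowest at 4.56, with a median of 5.06 and a highest value of 5.98, in 7-week KO mice, against 4.14, 4.47 and 5.26 in 7-week WT mice. The groups overlapped, the difference was 0.64 ± 0.20 (SE, limma adjusted p = 0.0101).

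Krt10, a type I keratin of the upper epidermis, went the other way. Its lowest, median and highest signals were 6.35, 6.77 and 7.03 in 7-week KO mice, against 6.93, 7.15 and 7.64 in 7-week WT mice, with a small overlap. The difference was -0.51 ± 0.10 (SE, limma adjusted p = 0.00017). Krt26, a hair follicle keratin, fell by 0.32 (adjusted p = 0.0379) and Krt9, a keratin of palm and sole skin, fell by 0.21 (adjusted p = 0.0489). With 1 mouse left out, Krt26 passed in 23 of 32 fits and Krt9 in 13 of 32.

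Of 13 other measured intermediate filament genes, 5 rose and 0 fell at 7 weeks, beside 15.6% and 16.7% of all genes, with a median of 0.01. Vim (vimentin), the mesenchymal filament that injured tubule cells also take up, had means of 11.94 ± 0.28 in KO mice and 9.77 ± 0.11 in WT mice, a difference of 2.17 ± 0.13 (SE, limma adjusted p = 5.47e-14). Nes (nestin, 0.91 ± 0.11) and Des (desmin, 0.85 ± 0.10), both known from podocytes and contractile cells, rose too, as did the nuclear lamina gene Lmna (0.49 ± 0.10). The neurofilaments Nefm (-0.13) and Nefl (-0.12) did not pass.

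Of 18 desmosome and plakin genes, which anchor keratin filaments, 6 rose, 3 fell (Pkp4, Evpl and Dst, named after their values were seen) and 9 did not pass at 7 weeks, with a median of 0.05. Of all genes 15.6% rose and 16.7% fell, so the share that fell was that of all genes. The desmosomal cadherin Dsg2 had means of 7.70 ± 0.38 in KO mice and 6.67 ± 0.13 in WT mice, a difference of 1.03 ± 0.12 (SE, limma adjusted p = 4.36e-08). Desmoplakin (Dsp, 0.71 ± 0.15), which links keratins to the desmosome, periplakin (Ppl, 0.61 ± 0.12) and plectin (Plec, 0.65 ± 0.14) also rose. The Plec value was -0.19, not past the threshold, when features naming several genes were kept. The epidermal cadherins Dsg1a (-0.17) and Dsg3 (-0.15) did not pass.

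Of 14 genes for proteins that bind or turn over keratins, 5 rose and 1 fell at 7 weeks, beside 15.6% and 16.7% of all genes, with a median of 0.07. The 14-3-3 protein gene Ywhah, of the family that binds phosphorylated keratin 18, rose by 0.81 ± 0.07 (SE, limma adjusted p = 2.88e-10), and the crosslinking enzyme Tgm2 rose by 0.55 ± 0.11 (adjusted p = 0.000259). Krtcap3 (0.41) and Ywhag (0.35) rose as well, the Ywhag call being lost after centring or quantile normalization, while Fam83h (0.22), a keratin organiser, and Trim29 (-0.17) did not pass. At 4 weeks 0 of the other filament, anchoring and keratin-binding genes passed (limma). Of these, 2 of 13, 4 of 18 and 2 of 14 had an unadjusted p below 0.05, and 0 passed in rank-sum tests. Among all 22180 genes 9 passed in limma, 2044 had such an unadjusted p and 0 passed in rank-sum tests.

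Transcription factors of the AP-1, Ets and Krüppel-like families, some of which are known to act on keratin promoters, mostly rose. Of 15 measured, 13 rose, 0 fell and 2 did not pass at 7 weeks, with a median of 0.74 against -0.06 over all genes. The shares over all genes were 15.6% higher and 16.7% lower. The members with the smallest p were the stress factor Atf3 (2.12 ± 0.14, SE, limma adjusted p = 2.02e-13), Klf6 (1.93 ± 0.13, 5.11e-13), the epithelial Ets factor Elf3 (1.84 ± 0.19, 2.44e-09) and Junb (1.07 ± 0.10, 4.49e-10). Fosb (0.21) and Sp1 (0.10) did not pass. At 4 weeks 0 of the 15 passed (limma, 3 at an unadjusted p below 0.05, 0 in rank-sum tests). Over all 22180 genes these counts were 9, 2044 and 0.

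Of 17 measured genes that most epithelial cells share, 10 rose, 3 fell and 4 did not pass at 7 weeks, with a median of 0.35. Beside them 15.6% of all genes rose and 16.7% fell, so the share that fell was near that of all genes. Claudins, which seal tight junctions, were among the risers: Cldn4 had means of 9.54 ± 0.64 in KO mice and 7.27 ± 0.13 in WT mice (2.27 ± 0.19, SE, limma adjusted p = 3.55e-11), and Cldn3 rose by 1.13 ± 0.16 (6.36e-07). The mucin Muc1 rose by 1.89 ± 0.16 (3.44e-11) and Cldn7 by 0.94 ± 0.14 (1.26e-06). The splicing factor Esrp1 (0.28) and the epithelial transcription factor Grhl2 (0.11) did not pass. At 4 weeks 0 of the 17 passed (limma, 3 at an unadjusted p below 0.05, 0 in rank-sum tests). Over all 22180 genes these counts were 9, 2044 and 0.

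**Figure D5:**
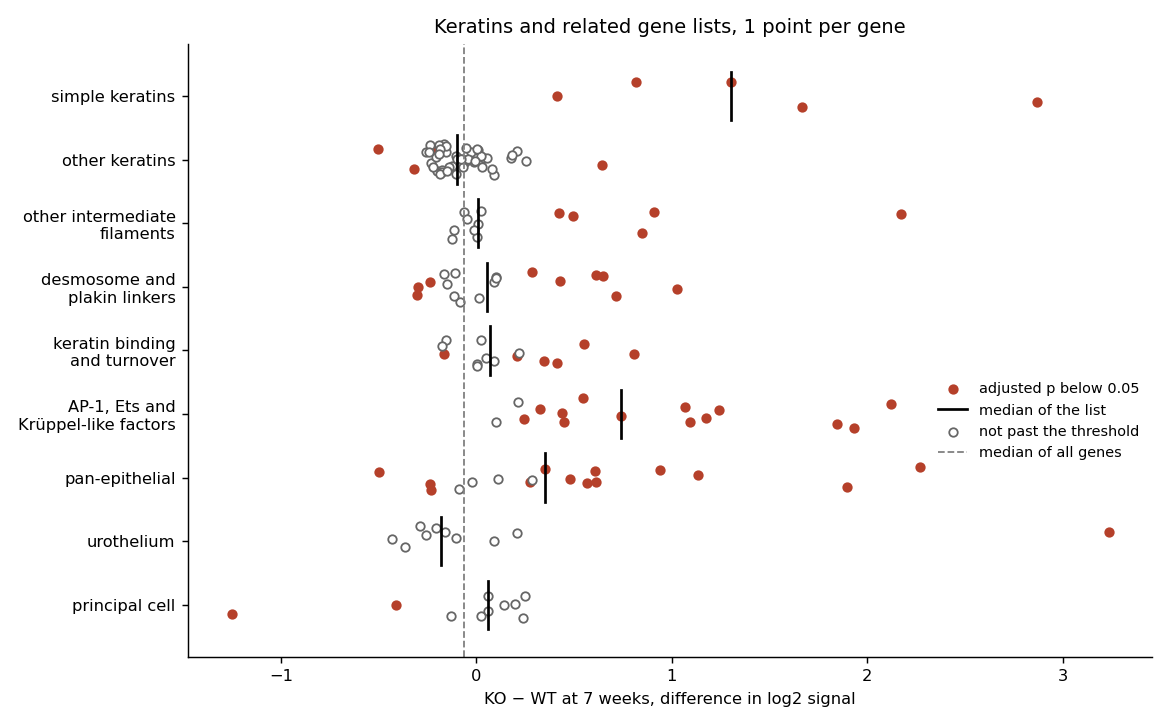
KO minus WT at 7 weeks in log2 signal (horizontal axis) for each gene of 9 lists, with filled points for an adjusted p below 0.05, open points for genes that did not pass, a bar at the median of each list and a dashed line at the median of all genes (-0.06). The 5 simple keratins all lie to the right, with a median of 1.30, whereas the 48 other keratins centre on -0.10. The mean signal of those 48 was below the median over all features in every 7-week mouse.

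The genes most like each keratin over the 32 mice were found by Pearson correlation, as a description. The values share the difference between 7-week KO mice and the rest, so r was also taken over the 24 mice outside that group. For Krt20 the 5 most like genes were Serpina3n (r = 0.961), Klf6 (0.959), Cd14, Cxcl2 and Vcam1, which include acute phase, inflammatory and adhesion genes. Over the 24 mice these 5 kept r between 0.709 (Cxcl2) and 0.804 (Klf6).

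Krt18 and Krt19 shared 3 of their 5 most like genes, Gabrp, Gdpd1 and Plet1. For Krt18 the highest was Golm1 (r = 0.961, and 0.229 over the 24 mice), and for Krt19 it was Plet1 (r = 0.950, and 0.463 over the 24 mice). Gabrp, a GABA receptor subunit of epithelia, had means of 8.61 ± 1.15 in 7-week KO mice and 5.22 ± 0.17 in 7-week WT mice, and its KO mice ran between 6.84 and 10.35. For Krt7 the highest was the claudin Cldn7 (r = 0.874, and 0.481 over the 24 mice).

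For Krt8, as for Krt20, the likeness in the values themselves extended outside the 7-week KO mice. The genes most like it were Mlph (r = 0.976, and 0.895 over the 24 mice), Tspan14 (0.973, and 0.860), Atxn10, Tmem43 and the focal adhesion gene Vcl (vinculin). The 24 mice still hold the WT age difference, in which Krt8 rose by 0.54 and Mlph by 0.56. After group means were subtracted, r over the 24 was 0.675 for Mlph and 0.757 for Tspan14. Among the keratins themselves, Krt18 and Krt19 were the most alike (r = 0.973 over 32 mice and 0.727 over the 24), while the partners Krt8 and Krt18 had r = 0.865 over 32 mice and -0.205 over the 24. With group means subtracted, Krt18 and Krt19 still had r = 0.923, Krt8 and Krt18 had 0.794 (0.191 over the 24), and Krt7 and Krt20 had 0.098. The gene most like Krt20 on that measure was Aoc1 (diamine oxidase, r = 0.812), with signals of 10.95 to 11.69 in 7-week KO mice and 8.46 to 8.99 in 7-week WT mice.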

How the data were processed

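Whole-kidney RNA from 32 mice (8 KO and 8 WT at 7 weeks, 8 KO and 8 WT at 4 weeks) was measured on 1 array each. The values are log2 signals per feature that the authors deposited after RMA (robust multi-array averaging, per the labels), and the submitters' processing notes name Affymetrix Expression Console with no version. Scanner files and scan batches were not analysed here. Of 41345 features, 23521 named 1 symbol, 1814 several and 16010 none, and 0 columns lacked a sample. Features naming 1 gene were kept, and the highest mean feature was used for the 1082 genes with more than 1, giving 22180 genes, with no filter on low values.

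The 4 group means were fitted with limma 3.58.1 in R 4.3.3 (28 residual degrees of freedom, moderated variances without trend). A gene passed at an adjusted p below 0.05 (Benjamini-Hochberg over 22180 genes). Single members were also compared by exact permutation (Python 3.11.15, numpy 2.4.6). The fit was tested on simulated data. The members and lists were chosen with earlier results of these data known, so counts over lists are descriptions.

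Genes were named by rule: the 5 members, other keratins that passed, up to 4 members per list with the smallest p at 7 weeks and up to 2 of the largest that did not pass, the 5 most like genes per member (predicted and small RNA genes left out), and Col4a3. Havcr1 and the values of Upk1a by mouse were singled out after their values were seen. List genes without a feature of their own were not analysed here. Promoters are from RefSeq (GRCm38.p6). Alternatives covered scaling, features, variances, dim genes, rank-sum tests and left-out mice.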

Additional observations from a re-analysis of the deposited data

Results flagged for a closer look

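The genotype difference was larger at 7 than at 4 weeks by the interaction test for Krt8 (0.77), Krt18 (1.63), Krt19 (1.18) and Krt20 (2.64), all in log2 signal. Among the other keratins it was lower at 7 than at 4 weeks for Krt10 (-0.63, limma adjusted p = 0.00218) and Krt26 (-0.50, adjusted p = 0.0372).

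The highest 7-week KO mouse for Krt26, mouse 2 at a log2 signal of 4.92, stood apart from the other 7 mice of its group by Dixon's test. Chance flags about 1 in 20 groups.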

How the results depend on the processing

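Over 50 or 51 settings each, the difference at 7 weeks kept its direction and passed for Krt8 (0.65 to 0.91), Krt18 (1.36 to 1.81), Krt19 (1.00 to 1.42) and Krt20 (2.75 to 2.98). Krt7 ranged from 0.21 to 0.49. It missed the threshold in rank-sum tests (0.41, adjusted p = 0.0878) and without KO mice 1 and 6 of 7 weeks (0.21), and it passed narrowly with arrays centred on the median of the tested genes (0.30). The Krt7 interaction passed without WT mice 5 and 6 of 7 weeks and WT mouse 7 of 4 weeks (0.56). Leaving out 1 mouse at a time gave 0.36 to 0.55 for it, past the threshold without KO mouse 3, 5 or 7 of 7 weeks. The causes were not tested.

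Values near 0 changed sign. The WT age difference of Krt19 was 0.021 with arrays centred on tested genes, 0.084 centred on all features, 0.021 after quantile normalization and 0.0051 without KO mice 3 and 4 and WT mouse 5 of 4 weeks, and -0.057 to 0.058 with 1 mouse left out. Without those 3 mice the differences at 4 weeks were -0.0022 for Krt8 and -0.057 for Krt20, and Krt18 at 4 weeks ran from -0.011 to 0.073 with 1 mouse left out. At 7 weeks Plec was -0.19 with features naming several genes kept, Sp1 -0.016 with centring on tested genes and -0.015 after quantile normalization, and Grhl2 -0.0053 with that centring. Pax2 was 0.026 with array quality weights, ran from -0.052 to 0.065 with 1 mouse left out, and was 0.16 without the 3 WT mice high in Upk1a, as were Kcnj1 (0.050) and Upk1a (0.047) above 0 there.

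With arrays centred on the tested genes 10892 genes passed at 7 weeks, of which 23.6% were higher in KO, against 7167 and 48.4%. At 4 weeks 9 genes passed, with 5 under array quality weights, 1 with only the groups compared in the fit, 0 in rank-sum tests (1603 at an unadjusted p below 0.05), 1 without KO mice 4 and 5, 72 without WT mice 5 and 8, 1 without the 3 WT mice high in Upk1a, 14 without KO mice 3 and 4 and WT mouse 5, and 3 to 24 with 1 mouse left out (24 without WT mouse 5, 21 without WT mouse 8 and 18 without KO mouse 7). A fit with the replicate number as a block (replicate block) changed no keratin call: Krt20 at 7 weeks was 2.87 and Krt7 0.41 (adjusted p = 0.0158), and 7067 genes passed. Same-numbered KO and WT mice had deviations that correlated at -0.27 to 0.23. Which mice shared a litter is not given, so the mice were treated as independent and litter effects were not tested. The alternatives with mice grouped by keratin, uroplakin or injury signals, the other Krt18 feature and centring on all features were chosen after seeing the data. The mice left out in those groups hold the highest values of several keratins, so the direction in which the keratin differences move is fixed by the choice. Detection calls were not used here. Whether dim keratins such as Krt9, Krt26 and, in WT mice, Krt19 and Krt20 were above background was not tested. The sizes of the Krt19 and Krt20 differences rest on those dim WT values.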
